A study of Mus musculus with 12 samples.

Results

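The proteasome genes described here are all genes whose array symbol begins with Psma, Psmb, Psmc, Psmd or Psme followed by a digit. The platform carried 45 of them on 80 probes, out of 19057 named genes. Of these, 39 genes had at least 1 probe with a detection p under 0.05 on at least 4 of the 12 arrays, out of 10575 genes measured that way. Each of the 39 was followed through its brightest probe, which was detected on 12 of 12 arrays in every case. Psmc3ip and Psme3ip1, encoding a meiotic recombination factor and a protein that binds the activator Psme3, match the letters of the rule but are not subunits, and they are counted apart where classes are given.

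Total RNA came from lower abdominal muscle of male FVB/N mice aged 1 month, and was hybridised as biotinylated cRNA to Illumina mouse bead arrays. AromhumH and AromhumL are transgenic mice that express human aromatase, the enzyme that converts androgens to estrogens, at a higher level in AromhumH and a lower level in AromhumL, and WT mice are the controls. Each of the 3 groups had 4 arrays, numbered 1 to 4 within a group. The promoter that drives the transgene, the cells that express it and the number of animals behind an array were not stated in the labels, so the p-values measure the spread between these arrays, which may be partly technical.

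The proteasome degrades proteins that carry ubiquitin chains. Its core particle is a barrel of alpha and beta rings in which the beta subunits Psmb5, Psmb6 and Psmb7 cut peptide bonds, and interferon-induced Psmb8, Psmb9 and Psmb10 can take their places to form the immunoproteasome. The regulatory particle has a base, with the Psmc ATPases that unfold the substrate, and a lid, with the enzyme that removes ubiquitin, while the Psme activators open the core without ATP. In skeletal muscle, proteasome genes are known to be induced together with the ubiquitin ligases Fbxo32 and Trim63 in several forms of atrophy.

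The transcription factor Nfe2l1 drives coordinated expression of proteasome genes through antioxidant response elements, and interferon-gamma acts on immunoproteasome genes in part through Irf1. RefSeq promoters (GRCm38.p6) were matched for 38 of the 45 genes, and the 250 bases before each annotated start were searched on both strands. The element core TGACNNNGC was present in 5 of 38 members (13.2%), against 11.5% of 27025 genes, and the CCAAT box in 16 of 38 (42.1%), against 37.5%. The interferon-stimulated element core was present in Psmb3, Psmd4 and Psmd9 (7.90%, against 3.46% of all genes), and the gamma-activated site TTCNNNGAA in Psmb8 alone among the members (2.63%, against 8.13%). The matches to TGACNNNGC and the match in Psmb8 are shown as examples, although their shares were near or below those of all genes. A link between these genes and the regulators described further on was not tested. Capitals mark the motif, in its reverse complement for Psmc6 and Psmd12, and a match is a description of the letters, not a bound site.
Psmb5, chr14:54618014-54618062, minus strand: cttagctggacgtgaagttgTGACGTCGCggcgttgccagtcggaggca
Psmb6, chr11:70525328-70525356, plus strand: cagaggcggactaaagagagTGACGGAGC
Psmc6, chr14:45329577-45329625, plus strand: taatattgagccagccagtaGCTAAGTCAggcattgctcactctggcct
Psmd12, chr11:107479278-107479309, plus strand: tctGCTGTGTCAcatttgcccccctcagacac
Psmd9, chr5:123228139-123228187, plus strand: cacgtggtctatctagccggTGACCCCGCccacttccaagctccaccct
Psmb8, chr17:34198078-34198126, plus strand: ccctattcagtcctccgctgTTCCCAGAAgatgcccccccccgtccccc
The first capital base lay 47 bases before the annotated start in Psmb5, 9 in Psmb6 and 31 in Psmd9, and at 97 bases in Psmb8. Psmb8 and Psmb9 lie on chromosome 17 beside Tap1 and Tap2, the peptide transporter genes of antigen presentation.

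The arrays differed in brightness. Mean raw intensity lay between 296.1 and 373.2 on the AromhumH arrays, between 221.6 and 273.9 on the AromhumL arrays and between 267.4 and 361.7 on the WT arrays, and between 17198 and 18867 of 45281 probes were detected. The AromhumH and AromhumL arrays did not overlap in brightness. A fit with brightness as a covariate therefore separates group from brightness poorly in AromhumH relative to AromhumL, for every gene given below. Values below are log2 intensities after background correction and quantile normalization, and a difference of log2 values is called a log2 change. The 9 skeletal muscle markers, Acta1 and Ckm among them, were all measured and averaged 14.02 to 14.09 on every array. Quantile normalization gives the brightest probes nearly the same values on every array, so this average cannot compare the muscle content of the arrays. Of 5 measured mesothelial markers 4 rose in AromhumH relative to WT and 4 relative to AromhumL, with summed linear intensities of 1690 to 3056 in AromhumH, 612.8 to 1201 in AromhumL and 576.2 to 1037 in WT. Of all genes 1.18% and 6.03% were called in these comparisons, in either direction. Of the lymphocyte markers, which matter here because lymphocytes carry the immunoproteasome, only Cd79b of 8 on the platform was measured, and Cd4, Ms4a1 and Nkg7 were detected on 0 arrays. Of 9 measured macrophage markers 0 passed in any comparison, and 2, 1 and 0 had an unadjusted p under 0.05 in AromhumH relative to WT, AromhumL relative to WT and AromhumH relative to AromhumL. The shares of all genes at that level were 16.7%, 8.37% and 24.9%. In the same order 8, 8 and 7 of the 9 markers stood above 0, with median log2 changes of 0.24, 0.16 and 0.06. Of 4 measured adipocyte markers 0 passed in any comparison, and in the same order 0, 0 and 2 stood above 0. Their median log2 changes were -1.05, -0.63 and -0.17. Their summed linear intensity varied widely within AromhumH, at 357 to 5091, against 995 to 1727 in AromhumL and 1206 to 3143 in WT. In whole muscle, fewer cells of a type and less RNA per cell cannot be told apart.

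In AromhumH relative to WT no proteasome gene passed the test, and the set as a whole sat on the centre of the distribution of all genes. Of 39 members, 0 had an adjusted p under 0.05 in limma's moderated test with Benjamini-Hochberg adjustment over 10575 genes, against 1.18% of all genes. At an unadjusted p under 0.05 there were 6 members (15.4%), against 16.7% of all genes, 2 higher and 4 lower in AromhumH. The median log2 change was -0.00 over the members and 0.01 over all genes, and the members ran from -0.49 for Psmd11 to 0.49 for Psmd13. The median size of the change, without its sign, was 0.140 over the members and 0.161 over all genes. The 95% confidence interval of the log2 change lay within 1 of zero in 39 of 39 members, against 94.0% of all genes, and within 0.5 of zero in 27 (69.2%), against 47.3%. A 2-fold change, which is 1 on the log2 scale, lay outside the interval of every measured member in this comparison, as read by its brightest probe. This does not hold for every dimmer probe. In a fit per probe the interval of the other detected probe of Psme4 ran from -1.07 to 0.10.

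In AromhumL relative to WT no member passed either, nor did any gene on the array (0% of 10575 by limma). At an unadjusted p under 0.05 there were 4 members (10.3%), against 8.37% of all genes, and all 4, Psmb10, Psmd2, Psmd4 and Psme3ip1, were higher in AromhumL. Without Psmc3ip and Psme3ip1, which are not subunits, there were 3 of 37 (8.11%). The median log2 change was 0.02 over the members and 0.01 over all genes, with a range of -0.39 for Psmd6 to 0.41 for Psmb10, and by the brightest probes 39 of 39 intervals lay within 1 of zero. The median size was 0.093 over the members and 0.139 over all genes. The comparisons of AromhumH and AromhumL with WT share the 4 WT arrays.

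AromhumH relative to AromhumL gave 1 call, Psmd2, which fell, against 6.03% of all genes called. At an unadjusted p under 0.05 there were 6 members (15.4%), against 24.9% of all genes, and by their brightest probes all 6 were lower in AromhumH: Psmd2, Psme4, Psmb8, Psmd11, Psmc2 and Psmd5. The other detected probes of Psmd2 and Psme4 were lower too, those of Psmd11, Psmb8 and Psmc2 were higher, at 0.70, 0.07 and 0.06, and Psmd5 had no other. The median log2 change was -0.04 over the members and -0.00 over all genes, and the median size was 0.108 over the members and 0.197 over all genes. By the brightest probes the interval lay within 1 of zero in 38 of 39 members, all but Psmd2, and in 91.1% of all genes.

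**Figure D1:**
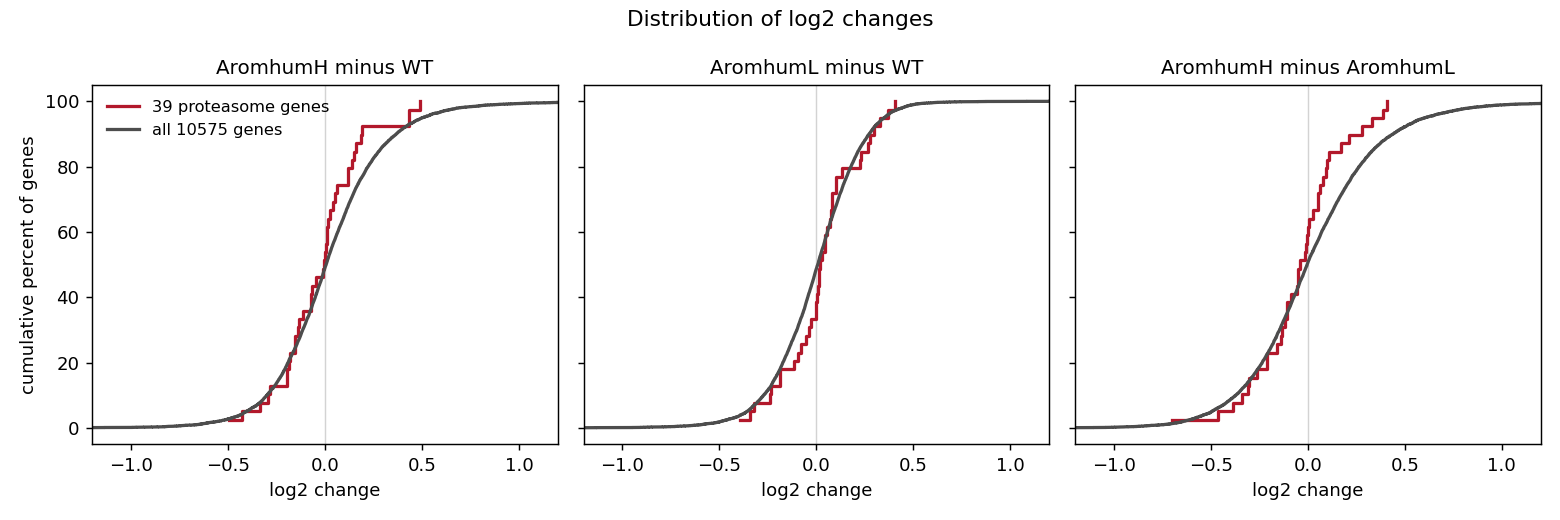
Cumulative distribution of the log2 change over the 39 measured proteasome genes (red) and all 10575 measured genes (grey) in the 3 comparisons. The x axis is the log2 change and the y axis the percent of genes at or below it. The red curves cross zero near the grey ones, with medians of -0.00, 0.02 and -0.04. The median sizes over members and all genes were 0.140 and 0.161 in AromhumH minus WT and 0.093 and 0.139 in AromhumL minus WT. In AromhumH minus AromhumL they were 0.108 and 0.197.

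**Figure D2:**
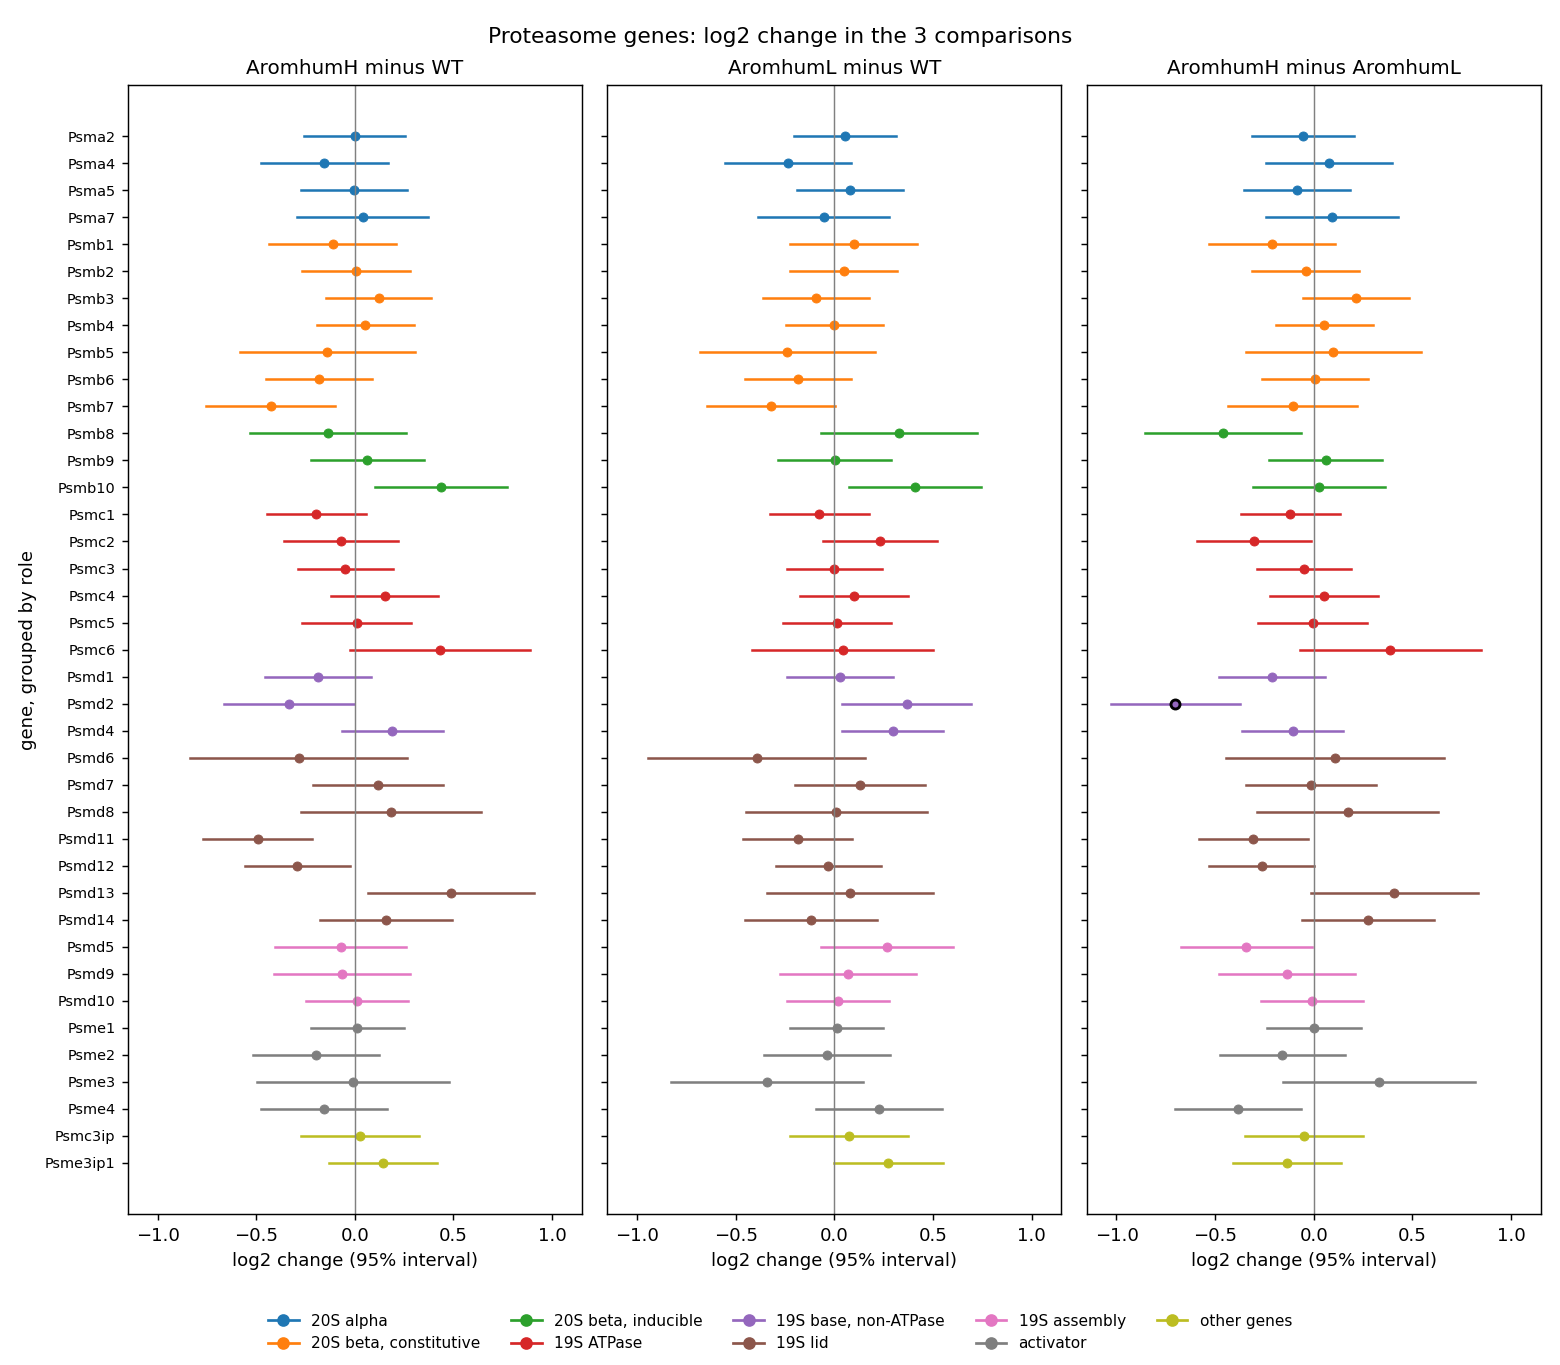
Log2 change (points) with 95% confidence interval (lines) of the 39 measured proteasome genes, grouped by role, in AromhumH minus WT, AromhumL minus WT and AromhumH minus AromhumL. The ringed point is Psmd2, at -0.70 the only member called in any comparison, and its interval runs from -1.03 to -0.37.

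Among the alpha subunits, which form the outer rings and the gate of the core, 4 of 8 were measured, and none passed in any comparison. Psma2 stood at -0.00 in AromhumH relative to WT and at 0.05 in AromhumL relative to WT, and Psma5 at -0.00 and 0.08. Psma4 had 11.03, 11.47, 11.47 and 11.24 on the AromhumH arrays, 11.52, 11.21, 11.20 and 10.96 on the AromhumL arrays and 11.49, 11.21, 11.61 and 11.52 on the WT arrays. The 3 groups overlap, and the log2 change was -0.15 in AromhumH relative to WT (SE 0.15, adjusted p = 0.659, limma) and -0.23 in AromhumL relative to WT (adjusted p = 0.654). The probes for Psma1, Psma3 and Psma6, also alpha subunits, and both probes for Psma8, a testis form, were detected on 0 of 12 arrays, which says nothing about transcripts these probes may miss.

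The constitutive beta subunits were measured in full, 7 of 7, and none passed. Psmb7, which carries the trypsin-like activity, had 11.88, 11.94, 11.98 and 11.66 in AromhumH, 12.13, 11.77, 11.92 and 12.06 in AromhumL and 12.34, 11.94, 12.23 and 12.66 in WT. The AromhumH and WT values overlap through WT 2, at 11.94, and the log2 change was -0.43 in AromhumH relative to WT (SE 0.15, adjusted p = 0.173) and -0.32 in AromhumL relative to WT (SE 0.15, adjusted p = 0.594). Psmb7 was the best covered member, with 4 detected probes, and all 4 were lower in AromhumH than in WT, at -0.61 to -0.15, and lower in AromhumL than in WT, at -0.32 to -0.14. None of the 4 passed in the fit per probe, where the smallest adjusted p was 0.119.

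Psmb6, which carries the caspase-like activity, had 12, 12.02, 12.05 and 11.96 in AromhumH, 12.27, 11.80, 11.85 and 12.10 in AromhumL and 12.17, 12.11, 12.17 and 12.30 in WT. All 4 AromhumH values lay below all 4 WT values, by a log2 change of -0.18 (SE 0.13, adjusted p = 0.505), and the other detected probe stood at 0.03. Groups that did not overlap were found for 3 of 39 members in this comparison (7.69%), Psmb6, Psmd11 and Psmd13, against 8.67% of all genes. Psmb5, the chymotrypsin-like subunit and the target of proteasome inhibitor drugs, had 8.95, 8.82, 8.87 and 8.49 in AromhumH, 8.67, 8.74, 8.23 and 9.09 in AromhumL and 8.43, 8.86, 8.95 and 9.46 in WT. The 4 WT arrays span more than the distance between any pair of group means, and the log2 change was -0.14 in AromhumH relative to WT (adjusted p = 0.795). Psmb1, Psmb2, Psmb3 and Psmb4, which have no catalytic role, ranged from -0.11 to 0.12 in AromhumH relative to WT.

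Of the inducible beta subunits, Psmb8, Psmb9 and Psmb10 were measured, and Psmb11, the thymus form, was detected on 1 of 12 arrays. Psmb10, which replaces Psmb7 in the immunoproteasome, had 9.13, 8.94, 9.18 and 9.13 in AromhumH, 8.72, 9.32, 8.99 and 9.24 in AromhumL and 8.54, 9.03, 8.57 and 8.5 in WT. The WT arrays 1, 3 and 4 lie below all AromhumH and AromhumL arrays, and WT 2 lies among them. The log2 change was 0.43 in AromhumH relative to WT (SE 0.16, adjusted p = 0.175) and 0.41 in AromhumL relative to WT (SE 0.16, adjusted p = 0.592), and the other detected probe stood at 0.37 and 0.22. Psmb10 and Psmb7, which exchange places in the core, thus stood on opposite sides of zero in both transgenic groups, neither passed, and the pair was not tested. Of 9 measured macrophage markers, 8 also stood above 0 relative to WT in AromhumH and 8 in AromhumL. The part of these cells in the values of Psmb10 was not tested.

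Psmb8, which replaces Psmb5, had 6.51, 6, 6.67 and 6.35 in AromhumH, 6.77, 6.82, 6.88 and 6.90 in AromhumL and 6.48, 7.04, 6.06 and 6.48 in WT. The 4 AromhumL arrays agree closely and lie above all AromhumH arrays, while the WT arrays overlap both groups. The log2 change was -0.46 in AromhumH relative to AromhumL (SE 0.19, adjusted p = 0.138) and 0.33 in AromhumL relative to WT (adjusted p = 0.625), and a dimmer probe, detected on 8 of 12 arrays, stood at 0.07 and -0.11. Psmb9, which replaces Psmb6, had 7.04, 6.74, 6.99 and 6.72 in AromhumH, 6.87, 6.80, 6.66 and 6.92 in AromhumL and 6.56, 7.02, 6.83 and 6.83 in WT. Its groups overlap throughout, with log2 changes of 0.06 in AromhumH relative to WT and 0.00 in AromhumL relative to WT. The 3 inducible subunits thus did not share a direction in AromhumH relative to WT, at -0.13, 0.06 and 0.43.

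In the base, the 6 ATPases were all measured and none passed. Psmc2 had 12.15, 12.20, 12.29 and 12.25 in AromhumH, 12.60, 12.50, 12.58 and 12.42 in AromhumL and 12.64, 12.33, 12.21 and 12 in WT. The AromhumH arrays all lie below the AromhumL arrays, at a log2 change of -0.30 (SE 0.14, adjusted p = 0.181), and the other detected probe stood at 0.06. Within groups its level ran against the brightness of the array (r = -0.76 over 12 arrays after removing group means). Psmc6 had 6, 5.97, 6.19 and 5.68 in AromhumH, 5.15, 5.42, 5.67 and 6.03 in AromhumL and 5.07, 5.29, 5.69 and 6.05 in WT. Its groups overlap, at 0.43 in AromhumH relative to WT (SE 0.22, adjusted p = 0.331), and within groups its level followed the brightness of the array more closely than that of any other member (r = 0.80). With array brightness as a covariate Psmc6 stood at -0.18 in AromhumH relative to AromhumL, against 0.39 without it. Because brightness did not overlap between these groups, that fit cannot say which part of the value belongs to brightness. Psmc1, Psmc3, Psmc4 and Psmc5 ranged from -0.19 to 0.15 in AromhumH relative to WT by their brightest probes. The other detected probe of Psmc5 stood at -0.21.

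Psmd2 is a scaffold of the base that holds ubiquitin receptors and shuttle factors. It had 5.33, 5.62, 5.64 and 5.32 in AromhumH, 6.27, 6.04, 5.89 and 6.53 in AromhumL and 5.94, 5.64, 5.71 and 5.97 in WT. All AromhumH values lie below all AromhumL values, while the WT values touch AromhumH at 5.64 and overlap AromhumL. Psmd2 fell in AromhumH relative to AromhumL to 0.615 of its AromhumL level (log2 -0.70, SE 0.15, 95% interval -1.03 to -0.37, adjusted p = 0.0218, limma), and stood at -0.33 in AromhumH relative to WT (adjusted p = 0.289) and at 0.37 in AromhumL relative to WT (adjusted p = 0.592).

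The call for Psmd2 rests on a dim probe. A second probe, dimmer still and detected on 11 of 12 arrays, stood at -0.11 in AromhumH relative to AromhumL (adjusted p = 0.774 in the fit per probe), and the mean of both probes at -0.41 (adjusted p = 0.0976). The adjusted p was 0.0653 without AromhumH 1, 0.0742 without AromhumH 4, 0.0712 without AromhumL 1 and 0.0631 without AromhumL 4, and under 0.05 on leaving out each of the other 8 arrays. With array brightness as a covariate, under which no gene of the array passed, Psmd2 stood at -0.68 (adjusted p = 0.488). On the authors' processed values it stood at -0.19 (adjusted p = 0.0499), at -0.08 in AromhumH relative to WT and at 0.11 in AromhumL relative to WT. Mesothelial markers were higher on the same AromhumH arrays, and the part of other cells in this value was not tested. The 250 bases before its annotated start, shown because it is the only member called, hold none of the 4 motifs searched.
Psmd2, chr16:20651402-20651651, plus strand: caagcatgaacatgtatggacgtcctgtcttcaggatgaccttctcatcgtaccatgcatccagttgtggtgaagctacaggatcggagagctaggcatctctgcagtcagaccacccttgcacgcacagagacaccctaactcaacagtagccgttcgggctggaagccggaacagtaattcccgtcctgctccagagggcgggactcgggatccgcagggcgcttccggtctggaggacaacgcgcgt

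Psmd4, a ubiquitin receptor, had 12.29, 12.14, 12.16 and 12.29 in AromhumH, 12.22, 12.35, 12.22 and 12.52 in AromhumL and 12.17, 12.06, 11.91 and 11.98 in WT. All AromhumL values lie above all WT values, at a log2 change of 0.30 (SE 0.12, adjusted p = 0.592), and AromhumH relative to WT stood at 0.19 (adjusted p = 0.456). Groups that did not overlap were found for 2 of 39 members in AromhumL relative to WT (5.13%), Psmd4 and Psme3ip1, against 4.24% of all genes. Without Psmc3ip and Psme3ip1 it was 1 of 37 (2.70%). Psmd1, the partner scaffold of Psmd2, did not pass in any comparison. Its 3 detected probes were all lower in AromhumH than in WT, at -0.43 to -0.19, and lower than in AromhumL, at -0.33 to -0.21.

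Of the lid subunits 7 of 8 were measured, and Psmd3 had 2 probes detected on 0 arrays. Psmd11, a lid scaffold whose increase is known to raise proteasome assembly in other systems, had the smallest p of all members in AromhumH relative to WT. Its brighter probe had 8.09, 8.28, 8.40 and 8.23 in AromhumH, 8.83, 8.37, 8.46 and 8.57 in AromhumL and 8.65, 8.89, 8.73 and 8.69 in WT. All AromhumH values lie below all WT values, at a log2 change of -0.49 (SE 0.13, adjusted p = 0.0754).

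The dimmer probe of Psmd11 went the other way. It had 7.25, 7.37, 7.61 and 7.35 in AromhumH, 6.67, 6.70, 6.57 and 6.86 in AromhumL and 6.55, 7.07, 7.18 and 6.80 in WT. Here all AromhumH values lie above all values of both other groups, by 0.49 relative to WT (SE 0.15, adjusted p = 0.126 in the fit per probe) and by 0.70 relative to AromhumL (adjusted p = 0.0215 in the fit per probe, which called 4.74% of 19004 probes). Both probes were detected on 12 of 12 arrays, a further probe was detected on 0, and the mean of both stood at 0.00 in AromhumH relative to WT. No direction is therefore given for Psmd11. Without background correction the brighter probe reached an adjusted p of 0.0477, at -0.42.

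Psmd13, another lid scaffold, had 11.61, 11.38, 11.58 and 11.79 in AromhumH, 11.38, 11.37, 10.71 and 11.27 in AromhumL and 10.49, 11.32, 11.36 and 11.24 in WT. The lowest AromhumH array lies just above the highest WT array and, before rounding, the highest AromhumL array, and WT 1 and AromhumL 3 lie far below their own groups. The log2 change was 0.49 in AromhumH relative to WT (SE 0.20, adjusted p = 0.224), and 0.28 without WT 1. Psmd6, also in the lid, varied most among the members, with a within-group SD of 0.442. It had 8.62, 8.24, 8.16 and 8.12 in AromhumH, 7.81, 8, 8.19 and 8.71 in AromhumL and 8.39, 7.79, 8.85 and 9.24 in WT. Its groups overlap, at -0.28 in AromhumH relative to WT (adjusted p = 0.632), and its r with array brightness was 0.76. The other detected probe of Psmd6 stood at 0.13 in AromhumH relative to WT.

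Psmd12 had an unadjusted p under 0.05 in AromhumH relative to WT, at -0.29 (adjusted p = 0.252), and its other detected probe stood at -0.25. Psmd14, the enzyme that removes ubiquitin from the substrate, stood at 0.16 by its brightest probe (adjusted p = 0.662) and at -0.28 by its other detected probe. Psmd7, its structural partner, stood at 0.12 by its brightest probe and at -0.55 and 0.11 by the other detected probes. The assembly chaperones Psmd5, Psmd9 and Psmd10 were all measured and by their brightest probes ranged from -0.07 to 0.01 in AromhumH relative to WT. Their other detected probes stood at -0.32 for Psmd9 and at -0.33 and 0.04 for Psmd10. Psmd5 stood at -0.34 in AromhumH relative to AromhumL (adjusted p = 0.191). In that comparison the groups did not overlap for 5 of 39 members (12.8%), Psmd2, Psmb8, Psmc2, Psme4 and Psmd13, against 15.8% of all genes.

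**Figure D3:**
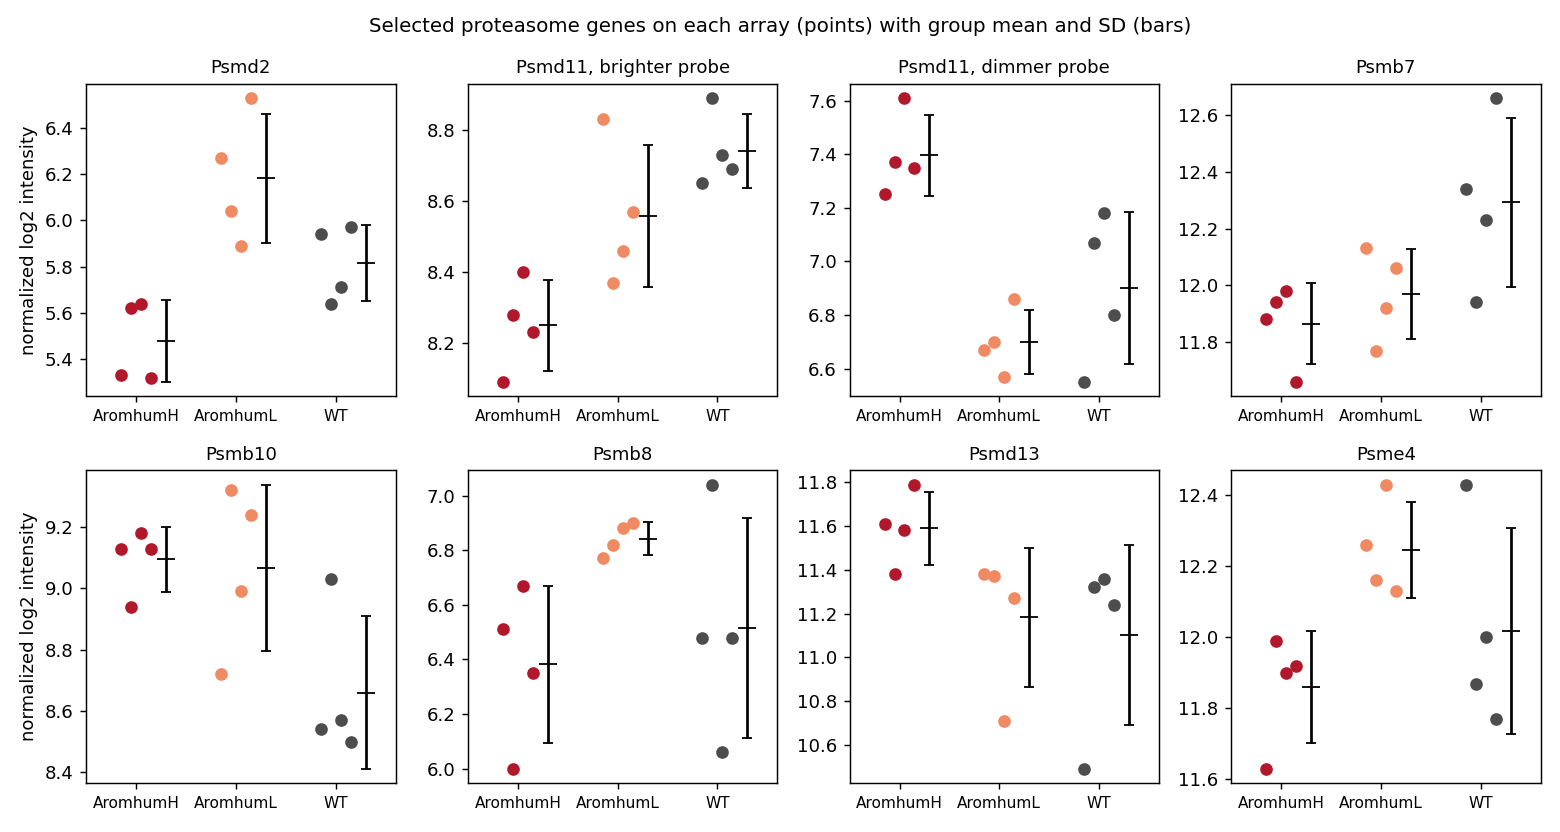
Normalized log2 intensity (y axis) of selected proteasome probes on each array (points), with the group mean and SD (bars), for AromhumH, AromhumL and WT. The probes of Psmd11 run in opposite directions, Psmd2 is lowest in AromhumH and highest in AromhumL, and Psmb10 has WT 2 at 9.03 among the transgenic arrays.

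The 4 activators were all measured and none passed. By the brightest probes Psme1, a subunit of the interferon-induced activator ring, was the steadiest member, with a within-group SD of 0.0783. It averaged 9.96 in AromhumH, 9.96 in AromhumL and 9.95 in WT. Its arrays read 9.99, 10.01, 9.93 and 9.93 in AromhumH, 9.92, 10.06, 9.84 and 10.03 in AromhumL and 9.84, 10.01, 9.98 and 9.97 in WT, with a log2 change of 0.01 in AromhumH relative to WT (95% interval -0.22 to 0.25). The other detected probe of Psme1 was less steady, with an SD of 0.376 in WT. It stood at 0.05 in AromhumH relative to WT, -0.16 in AromhumL relative to WT and 0.21 in AromhumH relative to AromhumL. Psme2, the other subunit of that ring, had 6.78, 6.53, 7.06 and 6.82 in AromhumH, 7.31, 6.65, 6.91 and 6.96 in AromhumL and 7.02, 7.03, 6.94 and 6.98 in WT. The groups overlap through AromhumH 3, at a log2 change of -0.20 (adjusted p = 0.551).

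Psme3, the nuclear activator, had 9.44, 9.17, 8.73 and 8.82 in AromhumH, 8.73, 8.52, 8.60 and 8.99 in AromhumL and 8.93, 8.39, 9.22 and 9.66 in WT. Its groups overlap, at -0.01 in AromhumH relative to WT and -0.34 in AromhumL relative to WT (adjusted p = 0.663), and with array brightness as a covariate the second value was 0.06. Psme4, the large activator linked to histone degradation, had 11.63, 11.99, 11.90 and 11.92 in AromhumH, 12.26, 12.16, 12.43 and 12.13 in AromhumL and 12.43, 11.87, 12 and 11.77 in WT. All AromhumH values lie below all AromhumL values, at -0.38 (SE 0.15, adjusted p = 0.130), and a dim probe detected on 10 of 12 arrays stood at -0.64. With array brightness as a covariate the brightest probe stood at -0.15. Psme3ip1 had 8.22, 8.38, 8.62 and 8.52 in AromhumH, 8.58, 8.51, 8.76 and 8.42 in AromhumL and 8.41, 8.35, 8.26 and 8.16 in WT, and AromhumL lay above WT without overlap at 0.27 (adjusted p = 0.592).

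Probes of the same gene showed how far a single probe can be read. Of the 39 members 20 had more than 1 detected probe, and in 11 of the 20 all probes had the same sign in AromhumH relative to WT. The probes of a gene spread most in Psmd11, by 0.985, in Psmd7, by 0.671, and in Psmb7, by 0.454, the last without a change of sign. The probe sequences were not used here, so which transcripts each probe reads was not tested.

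**Figure D4:**
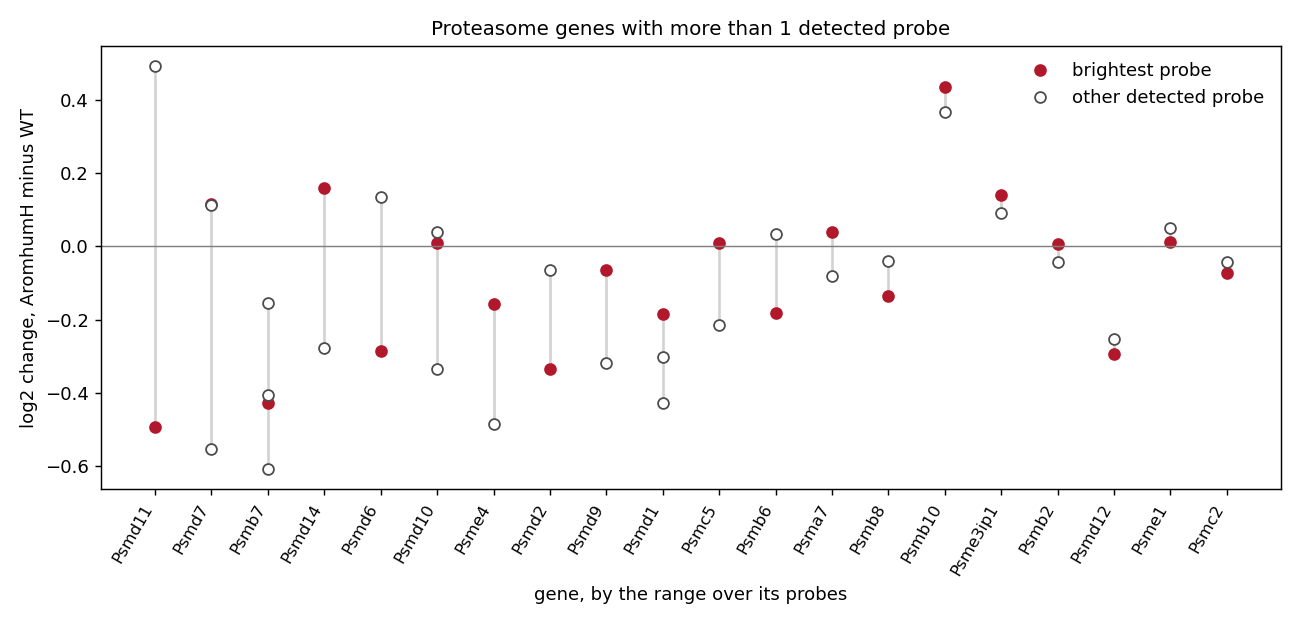
Log2 change in AromhumH minus WT (y axis) of every detected probe of the 20 proteasome genes with more than 1, ordered by the range over a gene's probes. Filled points are the brightest probe and open points the others. The probes of Psmd11 lie at -0.49 and 0.49, the 4 of Psmb7 all lie below zero, and the 2 of Psmb10 lie at 0.43 and 0.37.

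The members did not vary together from array to array within groups. The correlation between pairs of members, after removing group means, had a median of 0.035 over 741 pairs and 12 arrays, given as a description, and a member and a gene outside had a median of -0.012. The median within-group SD was 0.179 over the members and 0.227 over all genes. Psmd6 and Psme3 moved together most closely (r = 0.903), and both ran with array brightness within groups (r = 0.76 for Psmd6 and 0.65 for Psme3).

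The wider pathway was read from lists of genes around the proteasome, each to be read beside the values over all genes. The median of a list is that in AromhumH relative to WT unless another comparison is named. Over all genes the median log2 change was 0.01 in AromhumH relative to WT, and an unadjusted p under 0.05 was reached by 16.7% of genes in AromhumH relative to WT, 8.37% in AromhumL relative to WT and 24.9% in AromhumH relative to AromhumL. Assembly factors and proteasome-bound proteins had 10 measured genes with a median of -0.04, of which 0 passed in any comparison by limma and 1 had an unadjusted p under 0.05 in each, and Uchl5, a deubiquitinase bound to the regulatory particle, stood at -0.38 in AromhumH relative to WT (adjusted p = 0.208). Ubiquitin supply and delivery had 9 measured genes with a median of -0.23, of which 0 passed in any comparison and 3 had an unadjusted p under 0.05 in AromhumH relative to WT, 1 in AromhumL relative to WT and 4 in AromhumH relative to AromhumL. The shuttle factor Ubqln4 stood at -0.44 in AromhumH relative to WT (adjusted p = 0.147) and at -0.50 in AromhumL relative to WT (adjusted p = 0.570). Of the 9 genes 2 stood above 0 in AromhumH relative to WT and 3 in AromhumH relative to AromhumL. Among them was Uba6, at 0.51 (adjusted p = 0.254) and 0.63 (adjusted p = 0.0890) in that order. Muscle ubiquitin ligases had 8 measured genes with a median of -0.01, of which 0 passed and 1 had an unadjusted p under 0.05 in each comparison. Fbxo32 stood at -0.71 in AromhumH relative to WT (adjusted p = 0.184) and -0.83 in AromhumH relative to AromhumL (adjusted p = 0.0722), and Mdm2 in AromhumL relative to WT at 0.40. Trim63, the other ligase known from atrophy, stood at 0.28 in AromhumH relative to WT (adjusted p = 0.729), 0.56 in AromhumL relative to WT (adjusted p = 0.637) and -0.28 in AromhumH relative to AromhumL (adjusted p = 0.636). Antigen processing genes beside the immunoproteasome had 8 measured with a median of 0.01, of which 0 passed in any comparison and 2 had an unadjusted p under 0.05 in AromhumH relative to WT, Tapbp, a chaperone of peptide loading, at -0.43 and the transporter subunit Tap2 at 0.48 (adjusted p = 0.215 for each). Their median was -0.21 in AromhumL relative to WT, with 1 of 8 above 0. In AromhumH relative to AromhumL it was 0.22, with 7 of 8 above 0. At an unadjusted p under 0.05 there were 0 and 1.

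Of 5 measured transcription factors that act on proteasome genes, 2 rose in AromhumH relative to AromhumL, where 6.03% of all genes were called. At an unadjusted p under 0.05 there were 3 of the 5, against 24.9% of all genes. These were Stat3, Irf1 and Foxo1, which did not pass, at 0.56 (adjusted p = 0.0814, limma). Foxo1 stood at 0.23 in AromhumH relative to WT and at -0.34 in AromhumL relative to WT. In the comparisons with WT 0 passed, against 1.18% of all genes in AromhumH and 0% in AromhumL, and 1 had an unadjusted p under 0.05 in each. Stat3, a cytokine-activated factor, had 10.37, 10.90, 10.46 and 10.81 in AromhumH, 10.14, 10.17, 10.18 and 9.80 in AromhumL and 10.05, 10.08, 10.23 and 9.92 in WT. All AromhumH values lie above all others, at 0.56 relative to AromhumL (SE 0.15, adjusted p = 0.0392) and 0.57 relative to WT (adjusted p = 0.0725). Irf1, which drives interferon-induced genes, had 9.26, 9.47, 9.13 and 9.23 in AromhumH, 8.55, 8.87, 8.93 and 8.78 in AromhumL and 9.30, 9.10, 9.18 and 8.89 in WT. AromhumH lay above AromhumL without overlap, at 0.49 (SE 0.13, adjusted p = 0.0452), but overlapped WT, at 0.15 (adjusted p = 0.612). Both calls were near the threshold. The sign held under 23 of 23 alternatives, but the adjusted p of Stat3 stayed under 0.05 only on leaving out AromhumH 3, AromhumL 3 or any WT array (0.0280 to 0.113 over the 12 arrays left out), and that of Irf1 only on leaving out AromhumH 3, AromhumL 3, WT 1 or WT 4 (0.0347 to 0.132). With the mean of a gene's probes the adjusted p was 0.0927 for Stat3 and 0.0950 for Irf1, with array brightness as a covariate 0.471 for Stat3 and 0.520 for Irf1, and without the detection filter 0.0615 for Stat3 and 0.0547 for Irf1. Nfe2l1 stood at 0.14 in AromhumH relative to WT (adjusted p = 0.662) and at 0.05 in AromhumL relative to WT (adjusted p = 0.931), and of the 5 members with TGACNNNGC shown above none passed in any comparison. Markers of other cells also differed between AromhumH and AromhumL. Of 5 mesothelial markers 4 rose, and of 9 fibroblast markers 1 rose, Col1a1 at 1.25 (adjusted p = 0.0486), with 5 at an unadjusted p under 0.05. Of 4 erythroid markers 0 passed, 2 had an unadjusted p under 0.05 and the median was 0.70, and of 2 measured antigen-presenting cell markers 0 passed, with H2-Ab1 at 0.63 and Cd74 at 0.30. The summed linear intensity of the fibroblast markers was 25237 to 36346 in AromhumH and 21188 to 30195 in AromhumL, and that of the erythroid markers 11770 to 33211 in AromhumH and 9591 to 17860 in AromhumL. The part of these cells in the values of Stat3 and Irf1 was not tested.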

How the data were processed

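Lower abdominal muscle RNA was hybridised to 12 arrays, 4 per group. The deposited table held raw probe intensity per array with a detection p-value per probe, and, per the file headers, it was not normalized. The deposited series matrix held the authors' processed log2 values of the same arrays, used as an alternative. No scanner software or genome build was named in the labels or headers. Intensities were background-corrected from the detection p-values with an offset of 16, quantile-normalized and log2-transformed (limma 3.58.1, neqc, R 4.3.3). Probes with 1 symbol and detection p under 0.05 on at least 4 of 12 arrays were kept, 10378 probes having no symbol and 18 several, and each gene was read through its brightest probe. Means of 3 groups were fitted to all 12 arrays (lmFit, eBayes, 9 residual degrees of freedom), with Benjamini-Hochberg adjustment over 10575 genes. The code was tested on simulated data. Within-group correlations of arrays were 0.976 to 0.988, and 0 array pairs were identical. Arrays limit the precision by their number. Values on every array were given for members called in a comparison, the 3 largest changes in each direction in each comparison, the member with the smallest p in each class, the catalytic and inducible beta subunits, the activators, Psmd4 and Psmd11, and, chosen after their values were seen, for Psmc2, Stat3 and Irf1. Log2 changes of Psma2, Psma5, Psmd1, Psmd5, Psmd7, Psmd12, Psmd14, Trim63, H2-Ab1 and Cd74 were likewise added after their values were seen. The same holds for Foxo1 and for the other detected probes of Psmc5, Psmd9 and Psmd10. Alternatives were other background corrections and scalings, detection filters, probe summaries, a replicate block, array brightness as a covariate and leaving out each array. The members and gene lists were chosen with earlier results of these data known.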

Additional observations from a re-analysis of the deposited data

Results flagged for a closer look

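In 5 of 117 groups of 4 arrays (39 members in 3 groups) 1 array lay apart from the other 3, the gap to the nearest, over the group's range, exceeding Dixon's 95% critical value. Chance gives this in about 1 in 20 groups. Psmb10 was at 9.03 in WT 2, against 8.5 to 8.57 on the other WT arrays. Psmd13 was at 10.71 in AromhumL 3, against 11.27 to 11.38 on the other AromhumL arrays, and at 10.49 in WT 1, against 11.24 to 11.36 on the other WT arrays. Psmb3, a core subunit with no catalytic role, was at 11.5 in AromhumH 2, against 11.81 to 11.86 on the other AromhumH arrays. Psmd10, an assembly chaperone, was at 8.75 in WT 4, against 8.56 to 8.59 on the other WT arrays.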

How the results depend on the processing

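The count of members called in AromhumL relative to WT was 0 under all 24 alternatives. In AromhumH relative to WT it was 0 except without background correction, where it was 1 (Psmd11). In AromhumH relative to AromhumL, against 1 (Psmd2), it was 0 with the mean of a gene's probes, 0 with array brightness as a covariate and 2 in the fit per probe (Psmd2 and the dimmer probe of Psmd11), and 0 to 1 on leaving out 1 array, at 0 without AromhumH 1, AromhumH 4, AromhumL 1 or AromhumL 4. The median over members in AromhumH relative to WT was -0.0569 with the mean of a gene's probes and -0.0517 to 0.0156 on leaving out 1 array. With median centring in place of quantile normalization the median over all genes was 0.0540 in AromhumL relative to WT and -0.0570 in AromhumH relative to AromhumL. The causes were not tested. Replicate numbers did not pair the arrays, since deviations of same-numbered arrays correlated at -0.26 to 0.33; with the number as a replicate block the members called were 0 in AromhumH relative to WT, 0 in AromhumL relative to WT and 1 in AromhumH relative to AromhumL, Psmd2 (adjusted p = 0.0358, limma), and the adjusted p in AromhumH relative to AromhumL was 0.0558 for Stat3 and 0.0677 for Irf1. Probes near background, as for Psmd2, limit what small changes can be seen.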
